A study of Mus musculus with 12 samples.

Results

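The collagen genes of the mouse eyelid were taken as every gene of the deposited expression table whose symbol has the form of a collagen chain: Col, a type number, the letter a and a chain number. This gave 44 of 21936 genes, and all 44 had a value above 0 in at least 1 library. They fell into 11 fibrillar collagens, 6 basement membrane collagens (the chains of type IV) and 27 others. RNA was sequenced from eyelid tissue of male C57BL/6 mice, bought at 6 to 8 weeks old and kept under 12 h of light per day. The control groups (CTL) ate a diet with 10 kcal% fat and the high-fat groups (HF) one with 60 kcal% fat. Lids were taken at 9h, 15h and 21h, so that the 2 diets and 3 times made 6 groups of 2 libraries, 12 in all, each with 14096362 to 17889159 reads as recovered from the table. The labels name no allele, transgene or drug in any group. The tissue is labelled meibomian gland, which secretes the lipid of the tear film, while the series text speaks of entire lids, upper and lower. All 10 markers of meibocytes and sebocytes were above 0 in all libraries and summed to 5921 to 10119 FPKM, beside 2777 to 7804 FPKM for 11 skeletal muscle markers. The labels give 3 months of diet and the series text 4 months, and neither says whether 1 mouse or a pool went into a library, so the p-values below measure the spread between these libraries, which may be technical.

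Collagens are secreted proteins made of chains wound into a long helix, and each type is built from 1 gene product or from a set of related chains. Fibrillar collagens (types I, II, III, V, XI, XXIV and XXVII) assemble into the fibrils that give dermis, tendon, cartilage and the tarsal plate of the lid their strength. Type IV forms the sheet-like network of basement membranes, which underlie epithelia such as gland acini and epidermis and wrap muscle fibres and vessels. The remaining types coat fibrils, form beaded filaments, anchor epithelia to the dermis or span the cell membrane.

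The 250 bases upstream of a gene's start are shown for 3 fibrillar genes because the results below turn on them: Col5a3, the one collagen that passed the test between times of day, Col5a1, which encodes a chain that pairs with it in type V, and Col3a1, the most abundant collagen with a sequence in the table used. None of these windows holds annotated exon bases. Sequences are from RefSeq, build GRCm38.p6, for chr9:20815068-20815317 on the minus strand, chr2:27886175-27886424 on the plus strand and chr1:45311288-45311537 on the plus strand, in that order. They are printed 5′ to 3′ on the gene's strand, with matches in capitals.
Col5a3: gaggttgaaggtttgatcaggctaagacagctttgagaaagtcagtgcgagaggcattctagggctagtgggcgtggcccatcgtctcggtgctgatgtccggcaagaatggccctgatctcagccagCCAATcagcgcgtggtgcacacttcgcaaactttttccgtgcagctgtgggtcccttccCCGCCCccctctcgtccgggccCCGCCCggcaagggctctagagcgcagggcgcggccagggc
Col5a1: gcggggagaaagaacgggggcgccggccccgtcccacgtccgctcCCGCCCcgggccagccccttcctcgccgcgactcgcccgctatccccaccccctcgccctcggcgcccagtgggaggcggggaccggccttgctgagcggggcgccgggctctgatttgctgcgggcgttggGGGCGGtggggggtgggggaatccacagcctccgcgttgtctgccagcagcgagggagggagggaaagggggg
Col3a1: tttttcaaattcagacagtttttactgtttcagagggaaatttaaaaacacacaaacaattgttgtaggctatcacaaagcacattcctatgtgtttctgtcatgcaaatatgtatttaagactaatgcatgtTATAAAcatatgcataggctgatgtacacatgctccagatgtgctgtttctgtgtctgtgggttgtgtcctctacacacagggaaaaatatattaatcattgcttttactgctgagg
Capitals mark 4 motifs searched on both strands: the CCAAT box as CCAAT, the TATA box as TATAAA, the GC box as GGGCGG, which reads CCGCCC from the other strand, and the E-box as CACGTG, the letters that clock proteins are known to bind. No motif contains another. The first base of each match is counted backwards from the start. Col5a3 had CCAAT at -122 and GGGCGG on the other strand at -63 and -41. Col5a1 had GGGCGG at -73 and, on the other strand, at -205, and neither CCAAT nor TATAAA. Col3a1 had TATAAA at -117 and none of the other motifs. Upstream windows were at hand for 35 of the 44 collagens. Of these 35, 21 held GGGCGG, 13 held CCAAT, 5 held TATAAA and 0 held CACGTG. Of 32851 mouse promoter windows of the same length, counted by window and not by gene, 32.7% held GGGCGG, 33.8% CCAAT, 12.4% TATAAA and 6.02% CACGTG. These matches describe letters in a window and are not binding sites.

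Collagen levels spanned from more than 100 FPKM to near 0. FPKM scales a gene's reads by the length of its exons and by the depth of the library. Levels between genes therefore depend on the exon lengths used. Col1a2 had more recovered reads than Col1a1, 187429 against 127729 over all libraries, but on 12426 exon bases against 6563. Averaged over the 12 libraries, fibrillar genes ran from 0.184 FPKM (Col2a1, the main collagen of cartilage) to 101 FPKM (Col1a1), with a median of 4.26 FPKM. The type IV genes ran from 0.172 FPKM (Col4a3) to 17.9 FPKM (Col4a1). The 27 others ran from 0.0255 FPKM (Col9a1, a cartilage collagen) to 50.7 FPKM (Col17a1), with a median of 1.53 FPKM. The share of a library's reads that fell on the 44 genes was 0.287% to 0.585%. Of the 44, 31 exceeded 1 FPKM in at least 2 libraries and were tested: 9 fibrillar, 4 of type IV and 18 others. The 13 that were not tested were Col2a1, Col24a1, Col4a3, Col4a4, Col6a4, Col6a5, Col9a1, Col9a2, Col19a1, Col22a1, Col25a1, Col26a1 and Col28a1, with means of 0.0255 to 0.556 FPKM. Col19a1 was at 0 in 3 libraries and Col9a1 in 4, where the limit that a count of 0 allows (3 reads) is 0.0256 to 0.0276 FPKM and 0.0331 to 0.0386 FPKM.

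**Figure D1:**
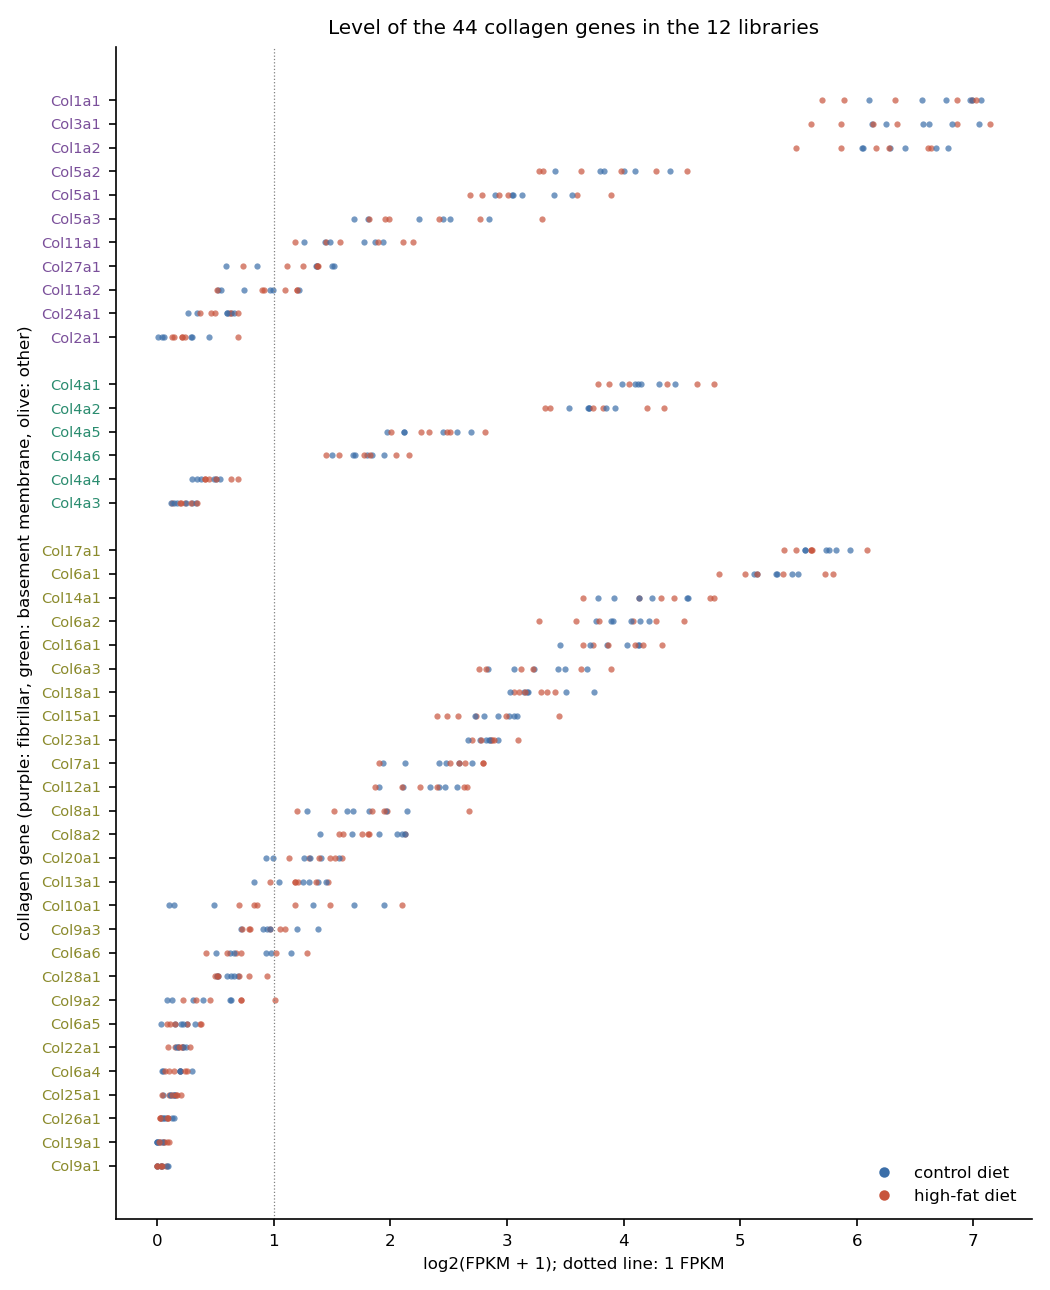
Each point is 1 of the 12 libraries, on log2(FPKM + 1), for the 44 collagen genes grouped by class (purple fibrillar, green type IV, olive other) and ordered by mean within a class. The dotted line marks 1 FPKM, and blue and red points (control and high-fat diet) overlap for most genes.

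Type I and type III, the collagens of dermal fibrils, led the fibrillar class. Col1a1, the alpha-1 chain of type I (ENSMUSG00000001506, GRCm38 chromosome 11, 94936224 to 94953042, plus strand), was at 125 and 107 FPKM in CTL 9h, 126 and 115 in HF 9h, 133 and 126 in CTL 15h, 51.0 and 129 in HF 15h, 68.0 and 93.6 in CTL 21h, and 79.2 and 58.4 in HF 21h. Its 4 libraries at 21h, at 58.4 to 93.6 FPKM, lay below all 4 at 9h, and 1 library, HF 15h replicate 2, lay lower than any other. Col1a2, its partner chain (chromosome 6, 4504814 to 4541544, plus strand), was at 76.8 and 65.4 FPKM in CTL 9h, 98.3 and 70.8 in HF 9h, 102 and 109 in CTL 15h, 43.6 and 96.9 in HF 15h, 64.9 and 84.0 in CTL 21h, and 76.3 and 57.2 in HF 21h. Unlike those of Col1a1, its libraries at 9h and 21h overlapped. Col3a1, the chain of type III, which mixes with type I in skin and vessel walls (chromosome 1, 45311538 to 45349706, plus strand), was at 97.5 and 69.1 FPKM in CTL 9h, 115 and 69.6 in HF 9h, 112 and 131 in CTL 15h, 47.7 and 141 in HF 15h, 75.0 and 93.6 in CTL 21h, and 80.1 and 57.2 in HF 21h. Its times and diets overlapped, and its 2 libraries of HF 15h held both the lowest and the highest value.

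Among the type IV genes, the chains of the common network, Col4a1 and Col4a2, were highest. Col4a1 (chromosome 8, 11198423 to 11312826, minus strand) was at 20.7 and 16.7 FPKM in CTL 9h, 23.8 and 19.7 in HF 9h, 16.4 and 18.8 in CTL 15h, 12.7 and 26.4 in HF 15h, 16.2 and 14.9 in CTL 21h, and 15.5 and 13.7 in HF 21h. All 4 libraries at 21h were below all 4 at 9h. Col4a2 (chromosome 8, 11312805 to 11449287, plus strand) was at 14.2 and 12.1 FPKM in CTL 9h, 17.4 and 13.2 in HF 9h, 12.0 and 13.4 in CTL 15h, 9.35 and 19.4 in HF 15h, 10.6 and 11.9 in CTL 21h, and 12.3 and 9.03 in HF 21h. Within each diet the libraries at 9h lay above those at 21h, and those of HF 15h enclosed all of them but 1. The starts of Col4a1 and Col4a2 lie head to head and overlap by 22 bases, and the other type IV genes are arranged in the same way: Col4a3 and Col4a4 with 71 bases between their starts on chromosome 1, and Col4a5 and Col4a6 with 1308 bases between on chromosome X. Col4a5, a chain found in skin basement membrane, was at 2.92 and 3.33 FPKM in CTL 9h, 4.71 and 3.03 in HF 9h, 4.95 and 5.47 in CTL 15h, 6.00 and 3.81 in HF 15h, 3.35 and 4.46 in CTL 21h, and 4.59 and 4.03 in HF 21h. Its highest value stood in HF 15h replicate 2, the library where Col4a1 was lowest. Col4a3 and Col4a4, chains best known from kidney, averaged 0.172 and 0.390 FPKM.

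The other collagens were led by 3 genes of different kinds. Col17a1, the membrane-spanning collagen of hemidesmosomes, by which basal keratinocytes hold to their basement membrane (chromosome 19, 47646344 to 47692094, minus strand), was at 46.1 and 60.3 FPKM in CTL 9h, 48.1 and 47.8 in HF 9h, 53.1 and 55.5 in CTL 15h, 67.1 and 47.6 in HF 15h, 45.9 and 52.4 in CTL 21h, and 40.5 and 43.6 in HF 21h. It ranged 1.66-fold over the libraries, against 2.60-fold for Col1a1, and its highest library was again HF 15h replicate 2. Col6a1, a chain of the beaded filaments around cells (chromosome 10, 76708792 to 76726168, minus strand), was at 34.3 and 33.7 FPKM in CTL 9h, 51.9 and 34.3 in HF 9h, 42.6 and 44.2 in CTL 15h, 27.2 and 54.7 in HF 15h, 38.9 and 38.6 in CTL 21h, and 40.2 and 32.0 in HF 21h. Col14a1, a collagen on the surface of fibrils (chromosome 15, 55307750 to 55520803, plus strand), was at 12.8 and 14.1 FPKM in CTL 9h, 25.8 and 16.6 in HF 9h, 22.3 and 22.5 in CTL 15h, 11.6 and 26.4 in HF 15h, 16.6 and 18.0 in CTL 21h, and 20.6 and 19.0 in HF 21h. For both genes the high-fat libraries enclosed the control libraries at 15h. By subclass, the fibril-associated genes reached 18.9 FPKM, the multiplexins Col15a1 and Col18a1, basement membrane proteoglycans, averaged 6.37 and 8.69 FPKM, and Col7a1, which forms the anchoring fibrils under the epidermis, averaged 4.60 FPKM. Col23a1, a membrane-spanning collagen, varied least, 1.41-fold from lowest to highest library.

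The remaining tested collagens are given by the range of their 12 libraries. Col5a2 and Col5a1, whose type V product starts and thins type I fibrils, spanned 8.68 to 22.3 FPKM and 5.41 to 13.8 FPKM. Col11a1 and Col11a2, their counterparts of type XI in cartilage fibrils, spanned 1.27 to 3.58 FPKM and 0.427 to 1.32 FPKM. Col4a6, which neighbours Col4a5, spanned 1.73 to 3.47 FPKM and like Col4a5 was highest in HF 15h replicate 2. The type VI chains Col6a2 and Col6a3 spanned 8.65 to 22.0 FPKM and 5.77 to 13.9 FPKM, both highest in HF 15h replicate 6, as Col6a1 was, and Col6a6 spanned 0.335 to 1.44 FPKM. The fibril-associated Col16a1 and Col12a1 spanned 9.96 to 19.1 FPKM and 2.65 to 5.30 FPKM. Col15a1, a multiplexin of muscle and vessel basement membranes, spanned 4.27 to 9.91 FPKM, and Col8a1, a short-chain collagen of vessel walls, 1.30 to 5.39 FPKM. For both, the lowest and the highest library were the pair of HF 15h. Col13a1, a membrane-spanning collagen of cell junctions and of the nerve-muscle synapse, spanned 0.780 to 1.76 FPKM. Of the untested genes, Col2a1 ranged from 1 read to 85 reads per library, Col9a2 from 3 to 47, Col6a4 from 4 to 30 and Col26a1 from 2 to 14, so counting error alone is large for them.

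**Figure D2:**
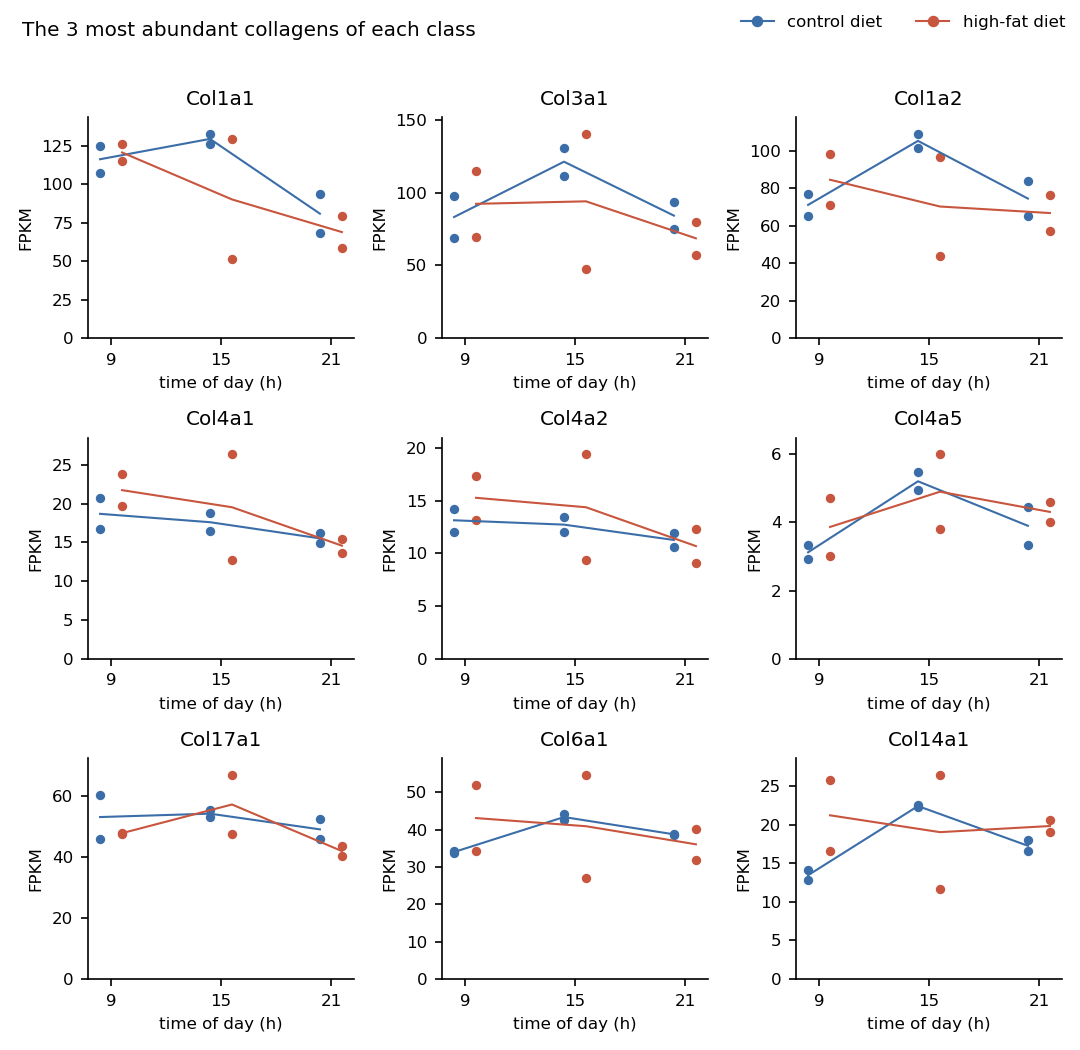
FPKM of the 3 most abundant collagens of each class (rows: fibrillar, type IV, other) by time of day, with 1 point per library, shifted sideways by diet, and lines through the means of each diet. In all 9 panels the HF 15h libraries lie further apart than those of any other group; Col17a1 and Col4a5 are highest in HF 15h replicate 2, where 6 of the other 7 genes are lowest.

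HF 15h replicate 2 and HF 9h replicate 6 stood apart from the other library of their group in these genes. In HF 15h replicate 2 the summed level of the fibrillar collagens was 163 FPKM, against 416 FPKM in replicate 6 of that group and 197 to 407 FPKM in the other 10 libraries. All 9 tested fibrillar genes were lower in it, by a median of 1.13 on the log2(FPKM + 1) scale. Its fibroblast markers without collagens (9 genes, none at 0 in any library; Dcn, Lum and Fap are also in the partner lists below) summed to 336 FPKM, against 461 to 645 FPKM in the other libraries, and its macrophage markers (8 genes) to 132 FPKM, against 254 to 470 FPKM. Dcn, at 184 FPKM, was the largest part of this fibroblast sum. Each of the 9 fibroblast markers but Pdgfra and Fap was lowest in HF 15h replicate 2. In the same library keratinocyte markers (9 genes) summed to 3822 FPKM, within the range of 3002 to 3903 FPKM of all libraries. In HF 9h, replicate 6 was above replicate 7 for 30 of the 31 tested collagens, by a median of 0.50. Markers moved with them: replicate 6 had the highest sums of all libraries for fibroblasts (645 FPKM, against 485 FPKM in replicate 7), for smooth muscle and pericytes (8 genes, 294 against 149 FPKM) and for endothelium (8 genes, 53.1 against 37.6 FPKM), while its meibocyte and sebocyte sum was 6499 against 10119 FPKM. In HF 9h replicate 6, Dcn (341 FPKM) was the largest part of the fibroblast sum and Acta2 (162 FPKM) of the smooth muscle sum. Of the fibroblast markers, only Lum and Fap were highest in this library. In this bulk tissue, fewer cells of a type and less RNA per cell cannot be told apart. The part of the cell type markers in the collagen results was not tested.

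**Figure D3:**
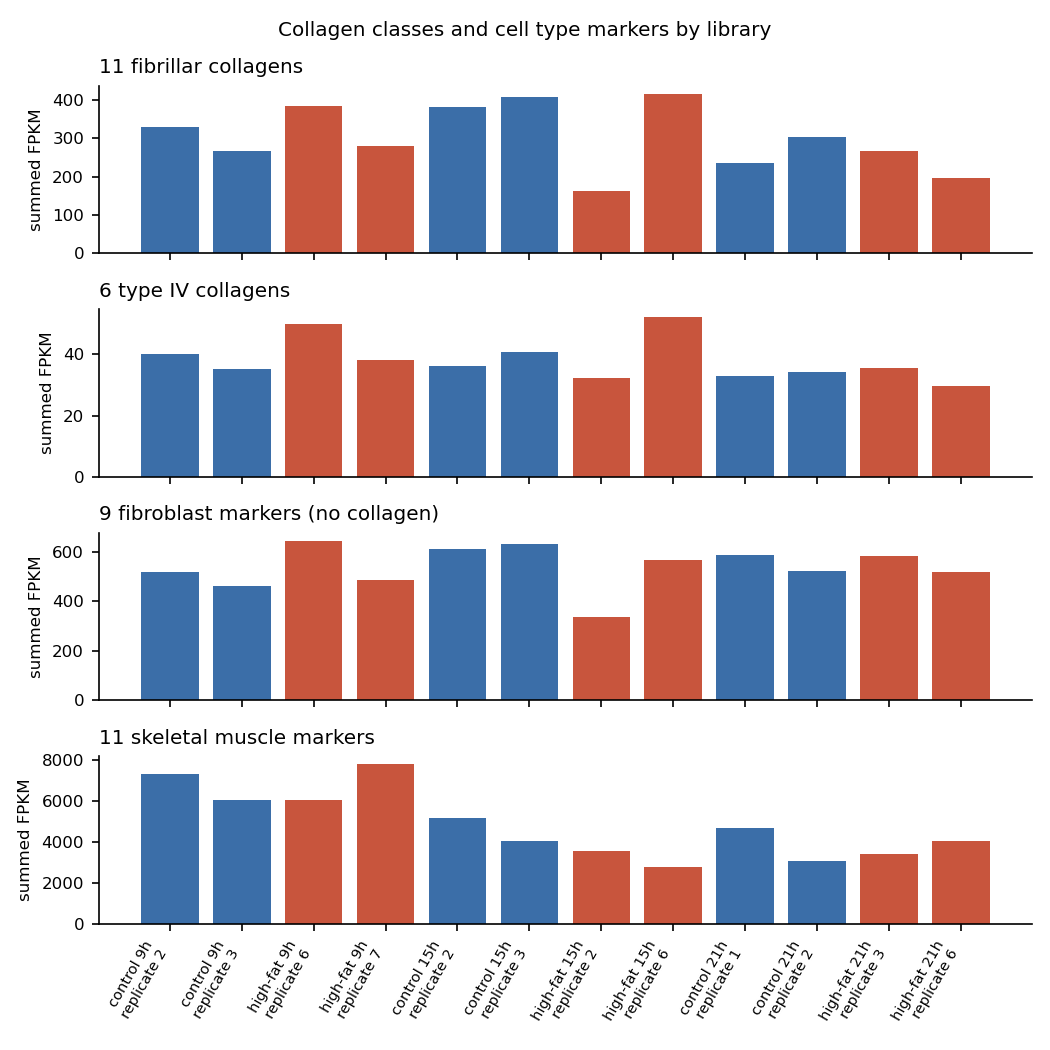
Summed FPKM in each library (blue control, red high-fat) of the 11 fibrillar and 6 type IV collagens and of the fibroblast and skeletal muscle markers. HF 15h replicate 2 is lowest for the fibrillar collagens and the fibroblast markers, at 163 and 336 FPKM, and the 4 libraries at 9h are highest for the muscle markers.

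High-fat diet was compared with control diet across the 3 times of day, as the series title names hyperlipidemic mice and diurnal rhythm. Tests were made with limma on log2(FPKM + 1) with Benjamini-Hochberg adjustment over 13228 genes, and a gene is called below an adjusted p of 0.05. None of the 31 tested collagens was called, while 1.98% of all genes were. At an unadjusted p under 0.05 the count was also 0, against 14.1% of all genes. The median difference of the collagens, high-fat minus control, was 0.015, beside -0.0057 for all genes, with 18 positive and 13 negative and a range of -0.28 to 0.24. By class the medians were -0.031 for fibrillar, 0.064 for type IV and 0.013 for the other collagens. Leaving out 1 library moved them from -0.23 to 0.12 (without HF 15h replicates 6 and 2), from 0.000415 to 0.14 (without HF 9h replicates 6 and 7) and from -0.098 to 0.12 (without HF 15h replicates 6 and 2). Col20a1, a minor fibril-associated collagen, had the smallest p, with 1.39 ± 0.393 FPKM in control and 1.66 ± 0.299 FPKM in high-fat libraries (SD, n = 6 each) and a log2 difference of 0.16 ± 0.09 (SE, limma adjusted p = 0.475). Its libraries were 0.985 and 0.913 FPKM in CTL 9h, 2.01 and 1.19 in HF 9h, 1.65 and 1.94 in CTL 15h, 1.61 and 1.46 in HF 15h, 1.48 and 1.40 in CTL 21h, and 1.88 and 1.79 in HF 21h. The high-fat libraries were the higher ones at 9h and 21h, and the lower ones at 15h. Col1a1 averaged 109 ± 24.6 FPKM in control and 93.1 ± 34.7 FPKM in high-fat libraries, a log2 difference of -0.28 ± 0.20 (limma adjusted p = 0.588), which was -0.058 without HF 15h replicate 2 and -0.50 without HF 15h replicate 6. Col7a1 averaged 4.26 ± 1.00 and 4.93 ± 1.19 FPKM, a log2 difference of 0.17 ± 0.14 (limma adjusted p = 0.626), which was 0.018 without HF 9h replicate 6 and 0.32 without HF 9h replicate 7.

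Within each time the collagens leaned different ways, and none was called. At 9h the median over the 31 collagens was 0.22, beside 0.023 for all genes, and 27 of 31 differences were positive. The count of calls was 0, as over all genes (0.0%), and 2 collagens had an unadjusted p under 0.05, against 7.22% of genes: Col20a1, with a difference of 0.40 ± 0.16 (limma adjusted p = 0.633), and Col18a1, the source of endostatin, with -0.31 ± 0.13 (limma adjusted p = 0.673). Col18a1 was at 10.4 and 12.4 FPKM in CTL 9h and at 8.78 and 9.14 FPKM in HF 9h, so that these groups did not overlap. Col14a1, with a difference of 0.59 ± 0.31, did not overlap either, with 25.8 and 16.6 FPKM in HF 9h and 12.8 and 14.1 FPKM in CTL 9h. With 2 libraries per group, genes that do not differ often separate in this way. The share of all genes that do so was not counted. Without HF 9h replicate 6 the medians at 9h were -0.023 for fibrillar, -0.012 for type IV and -0.096 for the other collagens, against 0.22, 0.20 and 0.25 with it. Without HF 9h replicate 7, 1 collagen, Col7a1, was called (limma adjusted p = 0.0436), and calls over all genes went from 0 to 155 (1.17%).

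At 15h the median was -0.14, beside -0.035 for all genes, with 22 of 31 negative and all 9 fibrillar genes among them. None was called, against 0.0605% of all genes, and none had an unadjusted p under 0.05, against 11.6%. The smallest p values belonged to Col1a2 (-0.68 ± 0.33), Col23a1 (0.24 ± 0.12) and Col8a2 (-0.42 ± 0.21), a short-chain collagen of the membrane under the corneal endothelium and of vessels (limma adjusted p = 0.465, 0.475 and 0.488). Col8a2 was at 3.35 and 3.30 FPKM in CTL 15h and 1.95 and 2.53 FPKM in HF 15h, and Col23a1 at 5.34 and 6.06 FPKM in CTL 15h and 6.30 and 7.55 FPKM in HF 15h. Neither pair of groups overlapped, which with 2 libraries per group is frequent by chance, and the share of all genes was not counted. At 9h and 21h the diets overlapped in Col8a2 (2.19 and 3.15 FPKM in CTL 9h, 3.37 and 2.37 in HF 9h, 1.63 and 2.74 in CTL 21h, 2.02 and 2.51 in HF 21h). They did so as well in Col23a1 (5.82 and 6.20 FPKM in CTL 9h, 6.27 and 5.51 in HF 9h, 6.60 and 6.25 in CTL 21h, 5.85 and 6.41 in HF 21h). The difference of Col1a2 was -0.12 without HF 15h replicate 2 and -1.25 without HF 15h replicate 6. Leaving out HF 15h replicate 2 turned the fibrillar median from -0.20 to 0.21 and that of the other collagens from -0.15 to 0.21.

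At 21h the median was -0.086, beside -0.014 for all genes, with 12 positive and 19 negative. None was called, against 0.00756% of all genes, and none had an unadjusted p under 0.05, against 5.37%. Col20a1 (0.22 ± 0.16), Col17a1 (-0.22 ± 0.17) and Col9a3 (-0.23 ± 0.20), a cartilage collagen, had the smallest p values (limma adjusted p = 1.000 each). Col9a3 was at 0.959 and 1.60 FPKM in CTL 21h and at 1.14 and 0.734 FPKM in HF 21h, which overlap. Earlier in the day it was at 0.642 and 0.870 FPKM in CTL 9h, 1.07 and 0.651 in HF 9h, 1.30 and 0.920 in CTL 15h, and 0.728 and 0.958 in HF 15h, and 6.07% of its exon bases are shared with Tcfl5. The test of whether the diet difference depended on time called 0 of the 31 collagens and 0.0% of all genes. At an unadjusted p under 0.05 the counts were 0 of 31 and 3.06% of all genes, and its smallest p values, for Col20a1, Col18a1 and Col14a1, were 0.0925, 0.132 and 0.163 before adjustment.

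**Figure D4:**
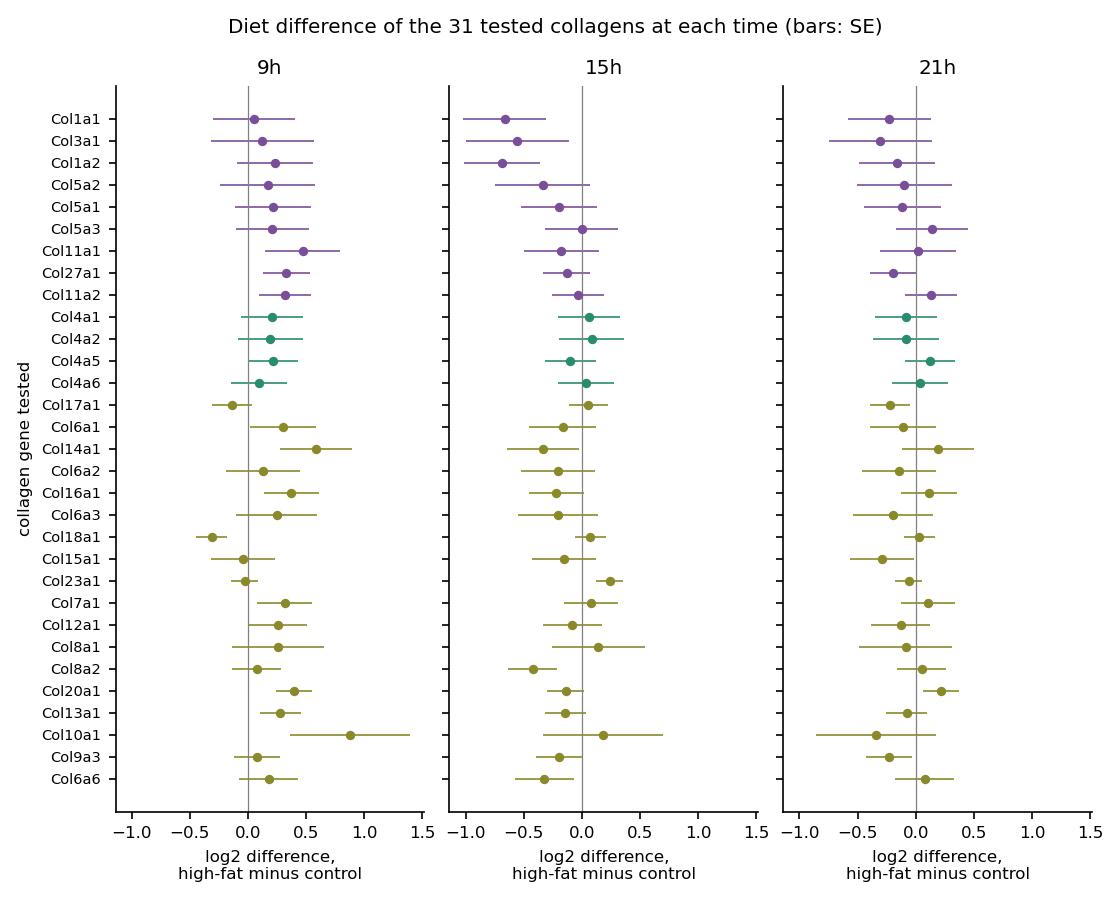
Difference between high-fat and control diet on the log2(FPKM + 1) scale for the 31 tested collagens at each time, with bars of 1 SE and classes in purple (fibrillar), green (type IV) and olive (other). Most points lie right of 0 at 9h (27 of 31) and left of it at 15h (22 of 31), and no collagen was called at any time.

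Between times of day 1 collagen was called: Col5a3, as lower at 21h than at 9h. Col5a3 encodes the alpha-3 chain of type V, a minor chain that joins Col5a1 and Col5a2 products in some tissues (ENSMUSG00000004098, GRCm38 chromosome 9, 20770050 to 20815067, minus strand). It was at 6.17 and 4.47 FPKM in CTL 9h, 8.86 and 4.33 in HF 9h, 3.75 and 4.69 in CTL 15h, 2.97 and 5.80 in HF 15h, 2.22 and 2.50 in CTL 21h, and 2.88 and 2.53 in HF 21h. All 4 libraries at 21h were below all 4 at 9h, in both diets, and those at 15h reached into the range at 9h. Its mean level was 5.96 ± 2.11 FPKM at 9h, 4.30 ± 1.22 FPKM at 15h and 2.53 ± 0.269 FPKM at 21h (n = 4 per time, SD). The difference of 21h minus 9h, averaged over diets, was -0.94 ± 0.22 (SE, limma adjusted p = 0.0425), beside a median of 0.055 for all genes and 0.080 for the 31 collagens. This made 1 of 31 collagens called, against 6.02% of all genes (3.43% lower, 2.59% higher), and 4 with an unadjusted p under 0.05, against 28.3%. The call is near the threshold: leaving out 1 library at a time moved the adjusted p between 0.0314 and 0.127 and the difference between -1.16 and -0.71, and without HF 9h replicate 6, its highest library, the adjusted p was 0.0314. The call was lost without either CTL 9h, CTL 15h or CTL 21h library or either HF 21h library.

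Col18a1, Col27a1 and Col1a1 had the next smallest p values in this contrast and were not called. Col18a1 averaged 10.2 ± 1.65 FPKM at 9h and 7.67 ± 0.394 at 21h, a difference of -0.36 ± 0.09 (limma adjusted p = 0.0563). It was at 7.86 and 8.07 FPKM in CTL 15h, 7.35 and 9.65 in HF 15h, 7.14 and 8.01 in CTL 21h, and 7.92 and 7.60 in HF 21h, so that all its values at 9h, the lowest of them 8.78 FPKM, stood above those at 21h. Col27a1, a fibrillar collagen of cartilage, had a difference of 0.52 ± 0.14 (limma adjusted p = 0.0607). It was at 0.506 and 0.807 FPKM in CTL 9h, 1.59 and 0.668 in HF 9h, 1.59 and 1.57 in CTL 15h, 1.16 and 1.58 in HF 15h, 1.87 and 1.82 in CTL 21h, and 1.61 and 1.38 in HF 21h. Its libraries at 9h and 21h overlapped, with 1.59 FPKM in HF 9h replicate 6 and 1.38 in HF 21h replicate 6. Of 8 cartilage markers, 4 were higher in all libraries of 21h than in all of 9h. Acan, Matn1 and Matn3 overlapped between these times, and Sox9 was highest in CTL 9h. The share of all genes that separate these times was not counted. The part of the cartilage markers in the values of Col27a1 was not tested. Col1a1 had a difference of -0.67 ± 0.25 (limma adjusted p = 0.119), from 118 ± 8.80 FPKM at 9h to 74.8 ± 15.1 FPKM at 21h. It was called without HF 15h replicate 2 (limma adjusted p = 0.0294) and without HF 15h replicate 6 (0.0294). Col7a1, at 2.83 and 3.36 FPKM in CTL 9h, 5.93 and 2.74 in HF 9h, 5.50 and 5.01 in CTL 15h, 5.25 and 5.96 in HF 15h, 4.55 and 4.32 in CTL 21h, and 4.70 and 5.01 in HF 21h, had one high library at 9h. Without that library, HF 9h replicate 6, 8 collagens were called for 21h against 9h: Col5a3 and Col18a1 as lower, and Col7a1, Col11a2, Col12a1, Col13a1, Col20a1 and Col27a1 as higher. Calls over all genes went from 796 to 3375 (25.5%) with that omission.

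For the other contrasts of time no collagen was called. For 15h against 9h the count was 0 of 31, against 0.0227% of all genes, and 6 collagens had an unadjusted p under 0.05, against 23.2%. These were Col7a1 (0.49 ± 0.17, limma adjusted p = 0.134), Col27a1, Col4a5, Col11a2 and Col20a1 with positive differences and Col18a1 with a negative one. For 21h against 15h it was 0, as over all genes (0.0%), with 2 collagens under an unadjusted p of 0.05 (4.45% of all genes), Col5a3 (-0.56 ± 0.22) and Col17a1 (-0.28 ± 0.12). For any difference among the times, averaged over diets, it was 0 against 1.46%, with 4 collagens at an unadjusted p under 0.05 (23.6% of genes), and Col5a3 had a limma adjusted p of 0.0959. Within the control diet it was 0 against 0.0227% (4 collagens and 18.3% of genes at an unadjusted p under 0.05), and within the high-fat diet 0 against 0.0% (1 collagen, Col5a3, and 8.73% of genes). Muscle markers also differed in level between the times, with no test made of it. The 11 skeletal muscle markers, among them Acta1 and Myh4, summed to 6053 to 7804 FPKM at 9h, 2777 to 5185 at 15h and 3050 to 4678 at 21h. Single markers did not all separate 9h from the later times. Myh1 and Mylpf overlapped between 9h and each later time, and Pvalb, Tnnt3 and Tnni2 between 9h and 15h. The fibroblast markers summed to 461 to 645 FPKM at 9h and 517 to 587 at 21h. The part of the muscle markers in the time results was not tested.

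Ratios between chains of the same collagen type set aside shifts that move all chains of a library together. All 18 pairs of tested genes within a type (6 types) were compared, a choice made after the gene values were known, by exact 2-sided permutation of the diets within times and of the times within diets, adjusted over 36 tests. Exon length shifts the size of a ratio in all libraries alike and not its change. Of the 18 ratios, 4 passed the test for time and 0 passed it for diet, where 1 had an unadjusted p under 0.05. Col5a2/Col5a3 was 2.14 and 2.17 in CTL 9h, 2.07 and 2.05 in HF 9h, 4.30 and 4.27 in CTL 15h, 2.92 and 3.86 in HF 15h, 5.83 and 6.03 in CTL 21h, and 5.13 and 4.52 in HF 21h. The 3 times did not overlap, and HF 9h replicate 6, where both genes were high, had a ratio of 2.07, within the range of the other libraries at 9h. Its exact permutation p for time was 0.000741, the smallest that 8100 permutations can give here (adjusted p = 0.0267). Its exact permutation p for diet was 0.00926 (adjusted p = 0.0533). Fewer permutations are possible for diet, and 0.00926 is the smallest p they can give. The high-fat libraries had the lower Col5a2/Col5a3 ratios at each time. Beside the other p-values, this ratio could not have passed for diet, so its result does not show that the diets are alike.

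Col5a1/Col5a3 rose likewise, from 1.26 to 1.63 at 9h to 2.31 to 2.93 at 21h (exact permutation, adjusted p = 0.0267), and Col5a1/Col5a2 fell, from 0.587 to 0.793 at 9h to 0.450 to 0.517 at 21h (exact permutation, adjusted p = 0.0400). These 3 ratios share genes. Those with Col5a3 reuse the gene called for time in these same libraries, so they are not separate support for its fall. The permutation p for time tests any difference among the 3 times, not 21h against 9h alone. Ratios of other gene pairs were not computed as a background. Levels of Col5a2 and Col5a1 themselves did not pass the test for 21h against 9h, with differences of 0.15 ± 0.29 and -0.28 ± 0.23 (limma adjusted p = 0.764 and 0.454). In type I, Col1a1/Col1a2 was 1.62 and 1.64 in CTL 9h, 1.28 and 1.62 in HF 9h, 1.31 and 1.16 in CTL 15h, 1.17 and 1.33 in HF 15h, 1.05 and 1.11 in CTL 21h, and 1.04 and 1.02 in HF 21h (exact permutation, adjusted p = 0.0267). The values at 21h lay below all values at 9h and 15h. In type IV, Col4a1/Col4a2 stayed between 1.25 and 1.53 over the 12 libraries (exact permutation p for time = 0.710), while Col4a1 and Col4a2 themselves differed 2.07-fold and 2.15-fold between lowest and highest library. Leaving out 1 library at a time kept the log2 change of 21h minus 9h between 1.30 and 1.39 for Col5a2/Col5a3, between 0.77 and 0.96 for Col5a1/Col5a3 and between -0.63 and -0.46 for Col1a1/Col1a2.

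**Figure D5:**
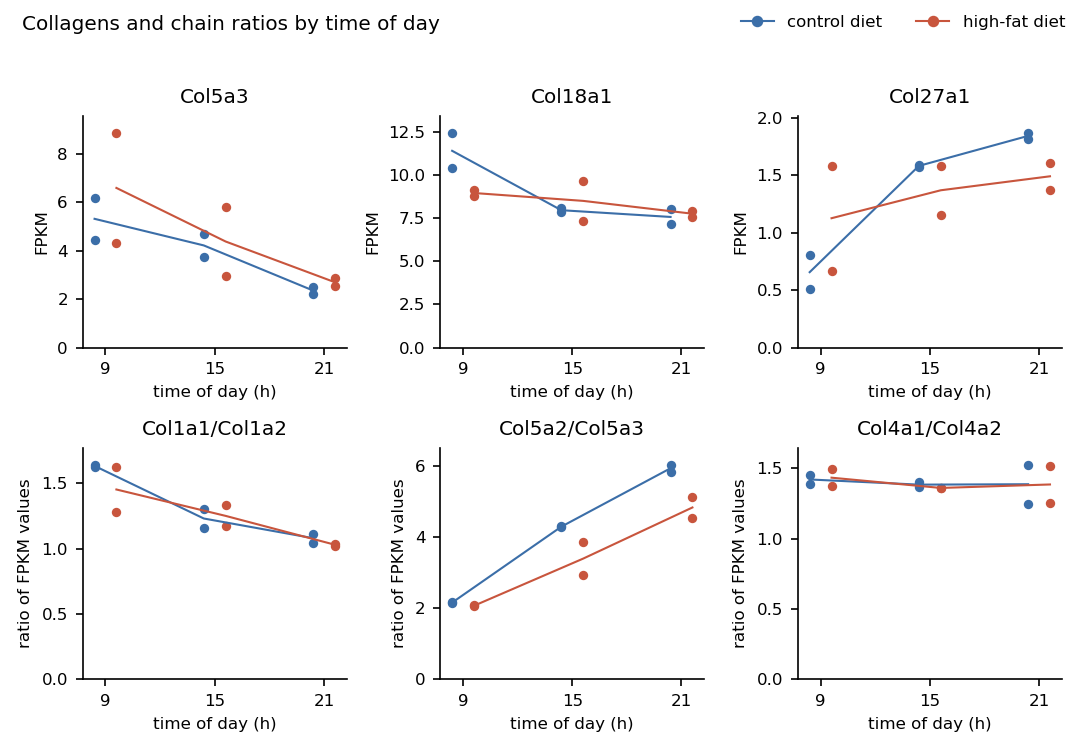
Upper row: FPKM of Col5a3, Col18a1 and Col27a1 by time of day. Lower row: ratios of FPKM values between chains of types I, V and IV. Points are libraries, shifted sideways by diet, and lines join the means of each diet; Col5a2/Col5a3 climbs from 2.05 to 2.17 at 9h to 4.52 to 6.03 at 21h, while Col4a1/Col4a2 stays at 1.25 to 1.53.

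Genes that make, cross-link, bind or break down collagen were read from 7 lists, with 96 tested genes in all. For the averaged diet comparison 0 of the 96 were called, beside 1.98% of all genes, and 8 had an unadjusted p under 0.05 in limma, beside 14.1% of all genes. The medians of the lists lay between -0.064 (breakdown) and 0.067 (basement membrane partners). Lair1, an inhibitory collagen receptor of leukocytes, came nearest, with 1.82 ± 0.495 FPKM in control and 0.828 ± 0.313 FPKM in high-fat libraries and a difference of -0.62 ± 0.14 (limma adjusted p = 0.0748). Its libraries were 1.87 and 1.05 FPKM in CTL 9h, 0.905 and 0.426 in HF 9h, 1.52 and 2.31 in CTL 15h, 0.533 and 1.11 in HF 15h, 2.37 and 1.77 in CTL 21h, and 0.778 and 1.21 in HF 21h, with the high-fat libraries lower at each time. In the other lists the smallest p belonged to Tgm2, a cross-linking transglutaminase (-0.46 ± 0.15, limma adjusted p = 0.212), Fkbp10, a chaperone of procollagen (-0.26 ± 0.10, 0.306), Lamb1, a laminin chain (0.29 ± 0.09, 0.201), Tgfbr3, a TGF-beta coreceptor (0.26 ± 0.08, 0.169), Prelp, a collagen-binding matrix protein (-0.20 ± 0.14, 0.565) and Timp4, a metalloproteinase inhibitor (0.15 ± 0.11, 0.604).

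From 9h to 21h, 5 of the 96 partner genes were called, 4 as lower and 1 as higher, beside 6.02% of all genes, and 14 had an unadjusted p under 0.05, beside 28.3% of all genes. These shares of the lists are not above those of all genes. The medians ran from -0.24 for the breakdown list and -0.15 for processing and cross-linking to 0.14 for fibril-associated proteins and 0.16 for receptors. In the breakdown list, 1 of 13 was called: Mmp14, a membrane-bound enzyme that cleaves fibrillar collagen, fell from 28.0 ± 3.67 FPKM at 9h to 16.9 ± 0.786 FPKM at 21h (SD, n = 4 each), a difference of -0.69 ± 0.12 (limma adjusted p = 0.0240). Its libraries at 9h were 31.8 and 29.8 FPKM in control and 27.2 and 23.3 in high-fat mice, and those at 21h were 17.5, 16.1, 16.4 and 17.6 FPKM. Of 8 collagen receptors, Ddr1, a receptor tyrosine kinase of epithelia that binds collagen, fell from 35.6 ± 2.45 to 27.0 ± 1.000 FPKM (-0.38 ± 0.07, limma adjusted p = 0.0226). Of 20 genes for modification and folding, Creb3l1, a transcription factor known to activate Col1a1 in bone, fell from 15.3 ± 2.73 to 9.61 ± 1.31 FPKM (-0.61 ± 0.13, limma adjusted p = 0.0323). For each of these 3 genes the libraries of 9h and 21h did not overlap. They were picked by the test between these same libraries, so this is not separate support for their fall. The share of all genes that separate these times was not counted.

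Of 16 genes of TGF-beta signalling, Ltbp4, which stores latent TGF-beta in the matrix, fell (-0.47 ± 0.09, limma adjusted p = 0.0310), and Tgfbr3 rose (0.41 ± 0.09, limma adjusted p = 0.0414). Tgfbr3 was at 9.62 and 10.9 FPKM in CTL 9h and 16.7 and 13.1 FPKM in HF 9h, against 16.4 and 16.0 FPKM in CTL 21h and 15.6 and 18.9 FPKM in HF 21h, so that 1 of its high-fat libraries at 9h lay among those at 21h. None of the 12 tested genes for processing and cross-linking, 13 fibril-associated proteins or 14 basement membrane partners was called. Their smallest p values were those of Loxl1, a lysyl oxidase (-0.59 ± 0.27, limma adjusted p = 0.194), Kera, a corneal proteoglycan (0.40 ± 0.20, 0.231) and Agrn, a basement membrane proteoglycan (0.38 ± 0.16, 0.151). Loxl1 was called without HF 15h replicate 2 or 6 (limma adjusted p = 0.0202 and 0.0203) and Agrn without HF 9h replicate 6 (0.0291). For the averaged diet comparison Prelp was called without HF 15h replicate 6 (0.0313). Each of the 5 calls was lost under some of the alternatives run, as that of Col5a3 was.

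Col10a1, the collagen of cartilage that turns to bone, varied most among the 31 tested genes. It was at 0.0752 and 0.107 FPKM in CTL 9h, 1.26 and 0.782 in HF 9h, 2.86 and 0.404 in CTL 15h, 0.625 and 3.28 in HF 15h, 1.52 and 2.21 in CTL 21h, and 1.79 and 0.807 in HF 21h, and it was described after its values were seen. Both CTL 9h libraries lay below the other 10, of which the lowest was at 0.404 FPKM, and the 2 libraries of CTL 15h and of HF 15h lay far apart. Its own libraries overlapped between 9h and 21h, with 1.26 FPKM in HF 9h and 0.807 in HF 21h. Of 8 cartilage markers, 4 did not overlap between 9h and 21h, all higher at 21h: Cnmd (0.0639 to 0.809 FPKM at 9h, 1.11 to 3.00 FPKM at 21h), Snorc (0.0816 to 0.339 and 0.698 to 2.16 FPKM), Ucma (0 to 0.454 and 0.816 to 3.19 FPKM) and Hapln1 (0.01995 to 0.124 and 0.224 to 0.421 FPKM). The share of all genes that separate these times was not counted. In limma, 28.3% of all genes had an unadjusted p under 0.05 for 21h against 9h. Acan, Matn1 and Matn3 overlapped between these times, and Matn1 and Matn3 were at 0 in both CTL 9h libraries. Sox9, which hair follicles also express, was at 12.7 to 22.2 FPKM, highest in CTL 9h. The sum of the 8 markers, most of it Sox9, was 15.8 to 23.4 FPKM at 9h and 17.9 to 25.3 FPKM at 21h. Col27a1, given above, is also a cartilage collagen and was likewise lowest in CTL 9h replicate 2. The part of cartilage in the samples in the values of Col10a1 and Col27a1 was not tested.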

How the data were processed

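RNA-seq of 12 libraries was analysed from the FPKM values that the authors deposited, 1 table for all samples. HISAT2 2.0.5, HTSeq 0.9.1, DESeq 1.30.0 and the build mm9 are listed, without roles, in the submitters' processing notes. How FPKM was derived from reads, and whether strand was used, is not given in the sources used here, and reads of a gene and its antisense partner cannot be told apart. The gene IDs fit GENCODE mouse release 21 on GRCm38 instead (21894 of 21936 matched), and coordinates and exon lengths are from that annotation. With these lengths 98.1% to 98.2% of nonzero values were whole reads within 0.02 reads, which gave depths of 14096362 to 17889159 reads per library. Of the 44 collagens, 31 share no exon bases with another gene.

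In R 4.3.3, limma 3.58.1 was run with trend (a prior spread that depends on a gene's mean) on log2(FPKM + 1), for genes above 1 FPKM in at least 2 libraries, with 6 group means and 6 residual degrees of freedom, adjusted by Benjamini-Hochberg over 13228 genes. It was also run on simulated data with noise drawn separately for each gene and library. That setting holds no shift shared by many genes of a library, so it cannot show how the test handles such shifts. A difference on this scale understates the change of genes near 1 FPKM. The members, their classes, the partner and marker lists and the rule for named genes were chosen with earlier results of these data known. Values in each library are given for the 3 most abundant collagens of a class, called collagens and those with the 3 smallest p values of a contrast; partner genes are named if called, or by smallest p. Symbols outside this rule (Col2a1, Col5a1, Col5a2, Col10a1 and genes named for their class or level) were chosen after their values were seen. Chain ratios were compared by exact permutation. Promoter windows came from RefSeq, GRCm38.p6. Alternatives were a pseudocount of 0.1, no filter, equal library medians, no trend, only the groups compared, a replicate block, limma-voom on recovered reads and leaving out each library.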

Additional observations from a re-analysis of the deposited data

How the results depend on the processing

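The diet comparisons kept 0 called collagens under every alternative run except that leaving out HF 9h replicate 7 gave 1 (Col7a1) at 9h, so that the count at 9h ran from 0 to 1 (0 to 155 over all genes). For 21h against 9h the count of 1 became 2 with equal library medians, 3 with limma-voom on recovered reads, 0 with only the groups compared and 0 with the replicate number as a block, and ran from 0 to 8 when 1 library was left out. With no filter on low values the 1 call was Col6a4 in place of Col5a3. Time in the control diet gave 2 with only the groups compared (Col14a1 and Col27a1) and 0 to 2 when 1 library was left out, beside 751 (5.68%) and 0 to 839 of all genes. Leaving out 1 library gave 0 to 4 collagens for time averaged over diets and 0 to 6 for 15h against 9h, the highest counts without HF 9h replicate 6, where 2509 (19.0%) and 2712 (20.5%) of all genes were called. A group reduced to 1 library was assumed to vary like the others.

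Over all genes, 796 were called for 21h against 9h, and 429 with no filter, 271 with only the groups compared, 0 with the replicate block, 949 with limma-voom on recovered reads and 4 to 3375 when 1 library was left out. For time averaged over diets 193 became 126, 7, 26, 87 and 0 with a pseudocount of 0.1, no filter, equal medians, no trend and the block, and 1 to 2509 when 1 library was left out. For the averaged diet comparison 262 became 0 with the block and 143 to 293 when 1 library was left out.

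Deviations of same-numbered libraries from their group means had correlations of -0.502 to 0.289 (12 pairs, 3 over 0.1). With 2 libraries per group the deviations of a group mirror each other, so these correlations are not independent. They cannot decide whether the numbers pair the samples, and the sources do not say what the numbers mean. With the replicate block, which leaves 2 residual degrees of freedom, the class medians of the diet difference were -0.64 (fibrillar) and -0.39 (other) at 21h and 0.41 (type IV) at 9h. When 1 library was left out, the medians at 9h ran from -0.023 to 0.65 (fibrillar), -0.012 to 0.39 (type IV) and -0.096 to 0.51 (other), and at 15h from -0.80 to 0.21, -0.12 to 0.15 and -0.50 to 0.21. Depth limits the untested collagens, some of them at a few reads per library. Chain ratios were added after the data were seen. The 4 that passed the test kept their direction in each omission of 1 library at 9h or 21h. Their values at 9h and 21h did not overlap, so no such omission could have turned the direction.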
